A study of Mus musculus with 12 samples.

Results

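Neutrophil-associated transcripts were followed in RNA from peritoneal macrophages of WT and meKO mice. The 7 transcripts, of the 12339 genes in the count table, were taken by symbol: the calprotectin subunits S100a8 and S100a9, the resistin-like Retnlg, lactotransferrin (Ltf), and the receptors Cxcr2, Csf3r and Il1r2. They were chosen on earlier results of these libraries, in which S100a9 and Cxcr2 stood higher in meKO, so their genotype differences are given as a description: calls are counted beside the share over all genes, and nothing is read from them. The diet differences, and the interaction of diet with genotype, were tested, but in the same libraries whose results were known when the members were chosen. Their counts of members called are therefore also a description.

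Prkce encodes protein kinase C epsilon, which the title of the series places in myeloid cells, and meKO is therefore read as a loss of Prkce in that lineage; which promoter or recombinase was used is not given in the labels. All mice, of both genotypes and on both diets, received AAV8PCSK9 at 8 weeks of age, a virus that takes the LDL receptor off hepatocytes. From then on they ate chow or a high fat ("Western") diet (HFD) for 4 weeks, after which thioglycolate was used to draw macrophages into the peritoneal cavity, and the cells were washed out. Each genotype was studied on each diet, which makes 4 groups of 3 libraries, and the labels name an animal count of 8 per genotype, 4 of them on HFD. The labels do not say whether each library came from 1 mouse, so p-values measure the spread between these libraries.

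Neutrophils are short-lived granulocytes that mature in the bone marrow under granulocyte colony-stimulating factor, acting through Csf3r, and leave the blood toward CXC chemokines sensed by Cxcr2. They store S100a8 and S100a9 protein in the cytosol, where the subunits pair as calprotectin, and lactotransferrin in the secondary granules. Thioglycolate brings neutrophils into the peritoneum first and monocyte-derived macrophages later, and eosinophils and mast cells are also found there. Several of these genes are transcribed in monocytes and macrophages too, so none of them alone marks a neutrophil. In RNA from a mixed lavage, a change in the number of cells of a type cannot be told apart from a change in RNA per cell.

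The sequences just upstream of 4 members are shown because S100a8 and S100a9, neighbours on chromosome 3, differed in whether the genotypes overlapped, and because S100a9, Retnlg and Cxcr2 were the members whose meKO and WT libraries did not overlap on either diet. Each is the 250 bases before the RefSeq start, 5′ to 3′ on the gene's strand, from RefSeq on GRCm38.p6, the mm10 assembly named in the submitters' processing notes. Capitals mark matches, on either strand, to the C/EBP letters TTNNGCAA or the ETS letters GGAAGT, which do not overlap one another here.
S100a8 (chr3:90668821-90669070, plus strand): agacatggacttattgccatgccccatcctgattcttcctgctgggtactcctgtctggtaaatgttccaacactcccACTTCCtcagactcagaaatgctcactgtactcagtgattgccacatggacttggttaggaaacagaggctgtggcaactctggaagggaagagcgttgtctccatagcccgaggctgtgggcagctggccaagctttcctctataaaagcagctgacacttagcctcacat
S100a9 (chr3:90695722-90695971, minus strand): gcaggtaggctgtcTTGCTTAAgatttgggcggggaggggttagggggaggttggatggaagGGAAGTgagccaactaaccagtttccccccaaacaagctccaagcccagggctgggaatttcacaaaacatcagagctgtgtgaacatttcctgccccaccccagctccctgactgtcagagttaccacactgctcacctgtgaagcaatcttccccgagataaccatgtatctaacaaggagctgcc
Retnlg (chr16:48872358-48872607, plus strand): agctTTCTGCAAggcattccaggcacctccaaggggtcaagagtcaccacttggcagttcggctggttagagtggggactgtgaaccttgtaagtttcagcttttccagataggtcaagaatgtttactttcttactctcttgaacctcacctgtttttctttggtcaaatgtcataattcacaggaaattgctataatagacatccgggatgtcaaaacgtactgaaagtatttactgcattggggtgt
Cxcr2 (chr1:74153744-74153993, plus strand): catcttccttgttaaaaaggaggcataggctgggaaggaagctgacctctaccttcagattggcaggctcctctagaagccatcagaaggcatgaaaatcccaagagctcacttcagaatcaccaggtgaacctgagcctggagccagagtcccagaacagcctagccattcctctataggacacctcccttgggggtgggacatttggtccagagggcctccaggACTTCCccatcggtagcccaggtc
C/EBP factors and the ETS factor PU.1 drive granulocyte and macrophage genes. The C/EBP letters were found in 3 of the 7 members (S100a9, Retnlg and Ltf) and in 9.56% of 32851 RefSeq mouse promoters of the same length. The ETS letters were found in 4 of the 7 (S100a8, S100a9, Cxcr2 and Il1r2) and in 19.7% of all promoters. The stretches used for Il1r2 (chr1:40085843-40086092) and Csf3r (chr4:126024409-126024658) lie inside the gene spans given below, so they precede a start within each span. A match is a description of the letters and not evidence of binding.

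The libraries held 25845000 to 37282800 counts on the listed genes. Prkce stood at 2.01 to 4.44 CPM (counts per 1000000, with totals scaled by TMM factors) in the 6 WT libraries and at 0.95 to 1.78 CPM in the 6 meKO libraries, so the labels and the targeted gene went the same way. The labelled cell type was checked on 8 macrophage genes, all of which were present. They summed to 35400 to 58900 CPM in WT and to 5220 to 26700 CPM in meKO, mostly Lyz2, the lysozyme gene of macrophages and neutrophils, which meKO chow replicate 2 held at 69.3 CPM and the other meKO libraries at 16300 to 21300 CPM. Of 31 neutrophil genes, the 7 members included, 17 were in the table. Ly6g, Ngp, Camp, Mpo and Elane, which define neutrophils or their precursors, were among the 14 others and are not analysed here. Every listed gene reached 0.501 CPM, here on library totals without TMM factors, in at least 6 of the 12 libraries. Cxcr2 reached it in exactly the 6 meKO libraries and in 0 of the WT libraries, so the listing itself required Cxcr2 to differ. S100a9 and Il1r2 reached it in 3 WT and 6 meKO libraries, and Ltf in 5 and 6.

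S100a8 and S100a9 encode the calcium-binding subunits of calprotectin, a protein that binds zinc and manganese and signals through TLR4. S100a8 (Entrez 20201, chr3:90669071-90670034) stood at 7.81, 8.88 and 14.4 CPM in WT chow, 18.1, 16.6 and 17.9 in WT HFD, 15, 13.4 and 13.1 in meKO on chow, and 13.4, 26.4 and 22.1 in meKO on HFD. The genotypes overlapped on each diet, and both WT chow replicates 1 and 2 were lower than every other library. S100a9 (Entrez 20202, chr3:90692630-90695721) stood at 0.368, 0.196 and 0.331 CPM in WT chow, 0.809, 0.757 and 0.963 in WT HFD, 3.83, 1.87 and 2.28 in meKO on chow, and 3.8, 4.69 and 2.78 in meKO on HFD. Every meKO library lay above every WT library. Over the 6 WT libraries S100a9 averaged 0.571 ± 0.311 CPM and over the 6 meKO libraries 3.21 ± 1.07 CPM (SD). The values rest on 6 to 140 counts per library for S100a9 and 272 to 692 for S100a8.

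The 2 subunits, whose proteins work as a pair, were present at unequal RNA levels. The ratio of S100a8 to S100a9 counts was 21.2, 45.3 and 43.5 in WT chow and 22.4, 21.9 and 18.6 in WT HFD. In meKO it was 3.91, 7.13 and 5.76 on chow and 3.52, 5.63 and 7.94 on HFD. The ratio did not overlap between the genotypes, with the lowest WT value at 18.6 and the highest meKO value at 7.94. Its denominator, S100a9, was chosen with its higher level in meKO known. The separation of the ratio restates that difference and is a description. The transcripts are of like length (498 and 519 nt), and per kilobase S100a8 averaged 20.8 CPM and S100a9 0.574 CPM in WT chow, against 27.8 and 5.13 in meKO chow.

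**Figure D1:**
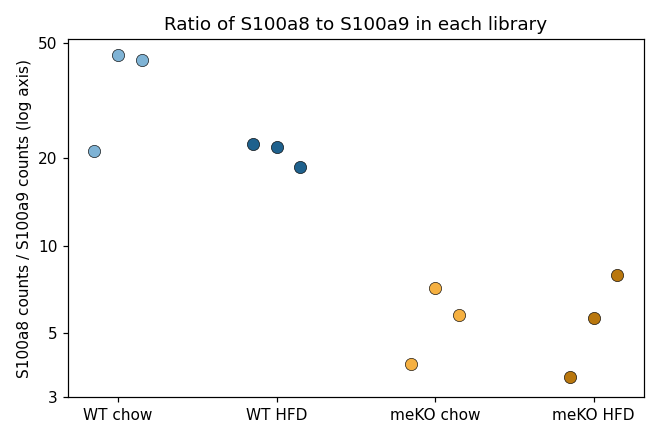
S100a8 counts divided by S100a9 counts (log axis) in each library, by group; each point is a library. The 6 WT points lie from 18.6 to 45.3 and the 6 meKO points from 3.52 to 7.94. S100a9 was chosen with its higher level in meKO known, so the separation is a description.

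Retnlg encodes a small secreted protein of the resistin family that is found in bone marrow and neutrophils. Retnlg (Entrez 245195, chr16:48872608-48874498) stood at 8.29, 7.71 and 10.2 CPM in WT chow, 3.43, 5.1 and 4.96 in WT HFD, 24.4, 14.4 and 33.6 in meKO on chow, and 9.78, 18.7 and 16.7 in meKO on HFD. On each diet the meKO libraries were above the WT libraries, while meKO HFD replicate 1 fell below WT chow replicate 3. Ltf, the iron-binding protein of secondary granules (Entrez 17002, chr9:111019292-111042766), stood at 0.566, 0.457 and 0.76 CPM in WT chow, 0.712, 0.826 and 0.692 in WT HFD, 0.958, 0.624 and 0.76 in meKO on chow, and 0.601, 1.34 and 2.74 in meKO on HFD. Only meKO HFD replicates 2 and 3 exceeded 1 CPM, and the genotypes overlapped on both diets. Ltf rested on 14 to 69 counts per library.

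Cxcr2 is the receptor for CXCL1, CXCL2 and related chemokines that brings neutrophils to inflamed tissue. Cxcr2 (Entrez 12765, chr1:74153994-74161246) stood at 0.34, 0.261 and 0.165 CPM in WT chow, 0.324, 0.344 and 0.271 in WT HFD, 1.01, 0.787 and 0.968 in meKO on chow, and 0.683, 0.801 and 0.556 in meKO on HFD. Every meKO library exceeded every WT library, at 5 to 37 counts per library. All 6 meKO libraries lay above all 6 WT libraries for 0.259% of the 12339 genes, and among the members for S100a9 and Cxcr2; the choice of members and, for Cxcr2, the listing had used that pattern.

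Csf3r, the receptor for granulocyte colony-stimulating factor (Entrez 12986, chr4:126023441-126044975), stood at 112, 120 and 98.5 CPM in WT chow, 76.2, 72.3 and 69.9 in WT HFD, 85.3, 92.2 and 94 in meKO on chow, and 97.5, 64.3 and 73.2 in meKO on HFD. WT chow was the highest group, above every meKO library, and on HFD the genotypes overlapped. Il1r2 is a decoy receptor that binds interleukin-1 without signalling. Il1r2 (Entrez 16178, chr1:40084692-40125230) stood at 0.226, 0.327 and 0.463 CPM in WT chow, 0.583, 0.895 and 0.782 in WT HFD, 0.849, 0.651 and 0.899 in meKO on chow, and 1.28, 0.763 and 0.993 in meKO on HFD. WT chow was lower than each of the other 3 groups, which overlapped one another.

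**Figure D2:**
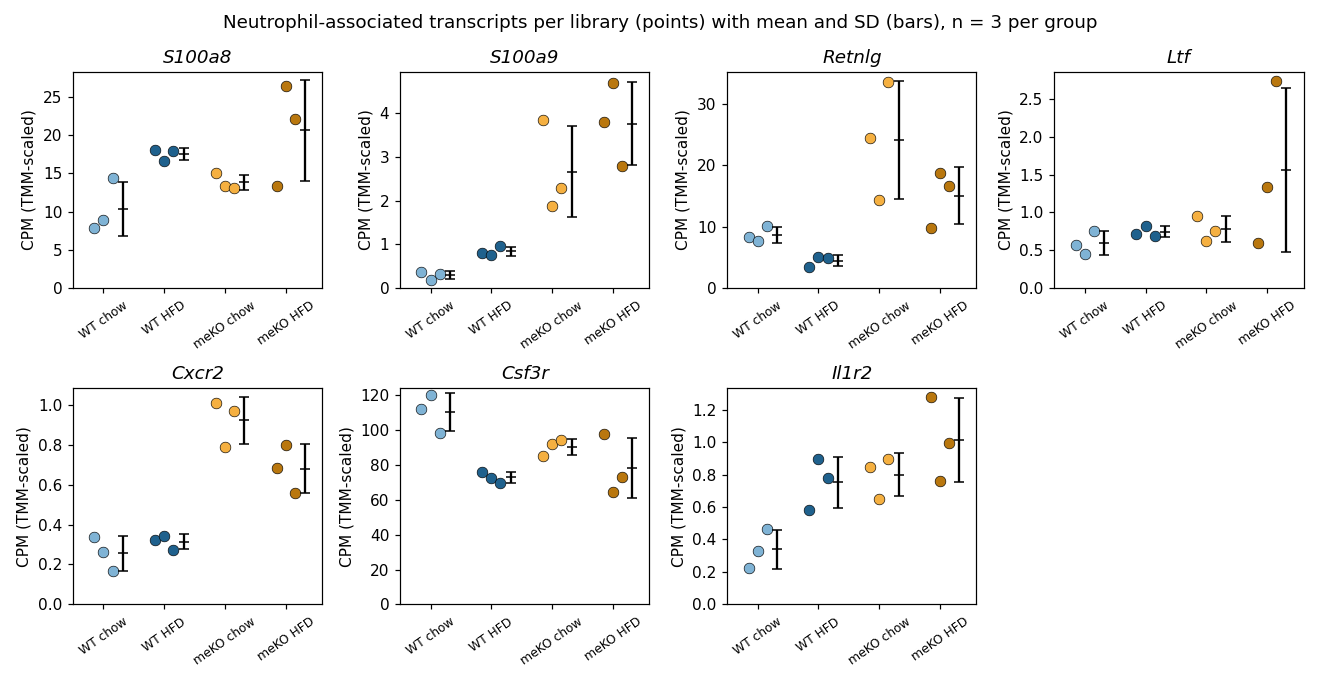
CPM (TMM-scaled, linear axes from 0) of the 7 transcripts in each library, with the group mean and SD (n = 3) as a bar beside the points. S100a9 and Cxcr2 show meKO points above every WT point, while S100a8 and Csf3r overlap between the genotypes on HFD.

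Per kilobase of transcript the members differed widely in level. In WT chow the order of the mean CPM per kilobase was Csf3r at 31.6, S100a8 at 20.8, Retnlg at 14.7, S100a9 at 0.574, Il1r2 at 0.239, Ltf at 0.217 and Cxcr2 at 0.0838. In meKO chow Retnlg came first at 40.7, followed by S100a8 at 27.8 and Csf3r at 26, then S100a9 at 5.13, Il1r2 at 0.563, Cxcr2 at 0.303 and Ltf at 0.285. Libraries overlapped on this scale between Csf3r and S100a8, S100a8 and Retnlg, and Il1r2 and Ltf in WT chow, and between Retnlg and S100a8, S100a8 and Csf3r, and Cxcr2 and Ltf in meKO chow. Within single libraries, S100a8 stood above Retnlg in each WT chow library, at 15.7, 17.8 and 28.9 against 14, 13 and 17.2. The other neighbours changed order between libraries.

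Between the genotypes on chow, the log2 fold changes of meKO over WT (± SE) were 3.13 ± 0.36 for S100a9, 1.82 ± 0.34 for Cxcr2, 1.47 ± 0.29 for Retnlg, 1.24 ± 0.36 for Il1r2, 0.42 ± 0.24 for S100a8, 0.39 ± 0.46 for Ltf and -0.28 ± 0.14 for Csf3r. The groups did not overlap for 5 members, with Csf3r lower in meKO and the other 4 higher, against 17.1% of all genes. The edgeR call (adjusted p under 0.05) was met by 1 of the 7, S100a9, and by 0.081% of all genes. The choice of members used this contrast, so neither count bears on them. The median over members was 1.24, and over all genes 0.

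On HFD the log2 fold changes of meKO over WT were 2.15 ± 0.32 for S100a9, 1.74 ± 0.30 for Retnlg, 1.12 ± 0.34 for Cxcr2, 1.04 ± 0.44 for Ltf, 0.44 ± 0.32 for Il1r2, 0.23 ± 0.24 for S100a8 and 0.11 ± 0.14 for Csf3r. The groups did not overlap for 3 members, S100a9, Retnlg and Cxcr2, against 10.3% of all genes. The edgeR call was met by 1 member, S100a9, and by 0.081% of all genes; here too the choice of members used the contrast, and neither count bears on them. The median over members was 1.04, and over all genes 0.02.

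**Figure D3:**
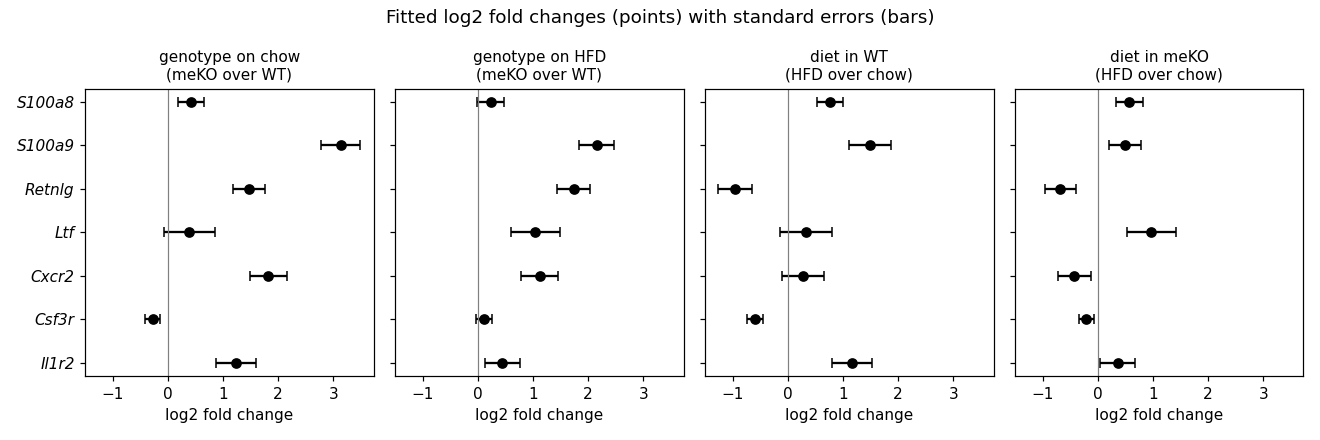
Fitted log2 fold changes (points) with their standard errors (bars) for the 7 transcripts in 4 contrasts; genotype panels show meKO over WT and diet panels HFD over chow. S100a9 has the largest genotype values among the members (3.13 and 2.15), and Retnlg and Csf3r lie below 0 in both diet panels.

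The diet comparison in WT asked how the high fat diet changed these transcripts in WT mice given AAV8PCSK9. S100a9, Il1r2 and S100a8 rose and Retnlg and Csf3r fell. S100a9 rose by a log2 value of 1.48 ± 0.38 (SE, edgeR adjusted p = 0.0224), Il1r2 by 1.16 ± 0.36 (adjusted p = 0.0386) and S100a8 by 0.76 ± 0.24 (adjusted p = 0.0396). Retnlg fell by 0.96 ± 0.30 (adjusted p = 0.0395) and Csf3r fell by 0.60 ± 0.14 (adjusted p = 0.0171). Cxcr2 at 0.27 ± 0.38 (adjusted p = 0.636) and Ltf at 0.32 ± 0.47 (adjusted p = 0.634) did not pass. For the 5 that passed, the 3 WT HFD libraries lay entirely on 1 side of the 3 WT chow libraries. Thus 5 of 7 members passed, in both directions, against 21.3% of all genes, and 5 did not overlap, against 39.3% of all genes. The members were chosen with results of these libraries known, so these counts are a description. The median was 0.32 over members and -0.03 over all genes.

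Transcript length moved with this contrast. Across 11532 genes, the Spearman correlation of transcript length with a library's departure from the mean of all libraries was 0.60 and 0.65 in WT chow replicates 1 and 2, -0.04 in WT chow replicate 3, and -0.41 to -0.11 in WT HFD; in meKO it ran from -0.43 to 0.12. With offsets for length and GC content the rises were no longer called: S100a8 stood at 0.06 ± 0.14 (edgeR adjusted p = 0.784), S100a9 at 0.77 ± 0.40 (0.203) and Il1r2 at 0.82 ± 0.38 (0.153). The falls of Retnlg, at -1.60 ± 0.33 (adjusted p = 0.0174), and Csf3r, at -0.42 ± 0.10 (adjusted p = 0.024), remained called. Without WT chow replicate 1, WT chow replicate 2, WT HFD replicate 1 or WT HFD replicate 3, 0 members passed; over all genes 129, 319, 460 and 96 were then called, against 2634 with every library. In the same way 2 members passed without WT HFD replicate 2 or meKO HFD replicate 3, and 3 without meKO chow replicate 1. With single libraries left out, the log2 fold change ran from 1.27 to 1.68 for S100a9 and from -0.66 to -0.53 for Csf3r. The same offsets left the genotype values of S100a9 at 2.76 on chow and 2.06 on HFD, of Retnlg at 1.15 and 1.61 and of Cxcr2 at 1.76 and 1.10, and took S100a8 to 0.06 and 0.09.

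**Figure D4:**
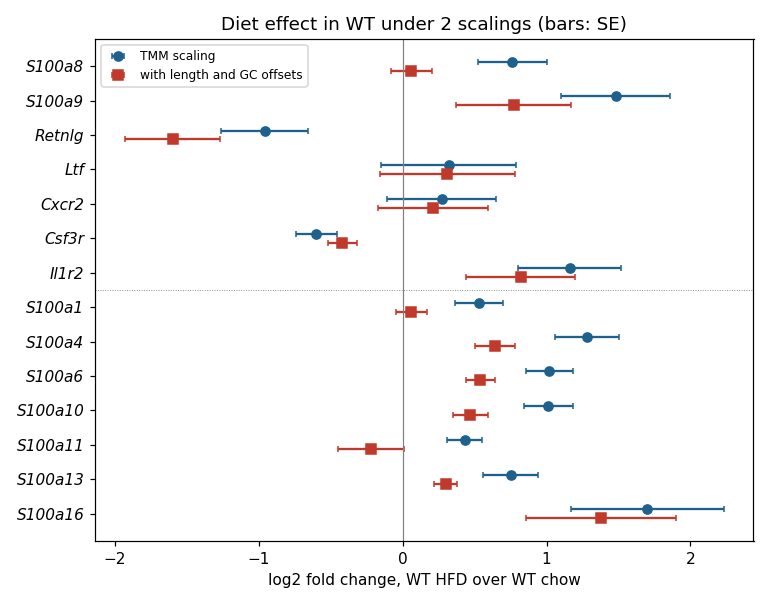
Log2 fold change of WT HFD over WT chow with its standard error for the 7 members (above the dotted line) and the 7 other S100 genes measured, with TMM scaling (circles) and with offsets for transcript length and GC content (squares). S100a8 goes from 0.76 to 0.06 with the offsets, while Retnlg goes from -0.96 to -1.60.

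In meKO no member passed the diet test. The edgeR log2 fold changes of HFD over chow were 0.97 ± 0.44 for Ltf (adjusted p = 0.305), 0.57 ± 0.24 for S100a8 (0.285), 0.49 ± 0.29 for S100a9 (0.398), 0.36 ± 0.32 for Il1r2 (0.578), -0.21 ± 0.14 for Csf3r (0.452), -0.43 ± 0.30 for Cxcr2 (0.474) and -0.68 ± 0.28 for Retnlg (0.285). The libraries of the 2 diets overlapped for every member, against 19.7% of all genes that did not overlap. With 0 of 7 called, against 0.105% of all genes, 3 members had an unadjusted p under 0.05, and DESeq2 and voom also called 0. S100a8, S100a9, Il1r2 and Ltf had positive and Retnlg and Csf3r negative values in both genotypes, while Cxcr2 was at 0.27 in WT and -0.43 in meKO. With the length and GC offsets the meKO values were 0.09 for S100a8, 0.06 for S100a9, 0.20 for Il1r2 and 0.97 for Ltf. Those of Retnlg, Csf3r and Cxcr2 were then -1.14, -0.12 and -0.45, and 0 members were called. The difference of the diet effect between genotypes was itself tested: its values ran from -0.99 ± 0.48 for S100a9 to 0.65 ± 0.64 for Ltf, and 0 of 7 passed (edgeR adjusted p of 0.797 to 0.903), against 0.0162% of all genes, with 0 at an unadjusted p under 0.05.

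Few of the classical neutrophil genes were measured, and by genotype none of those passed. Over all genes 0.081% passed by genotype on each diet in edgeR, so 0 called says little about a list of this size. An unadjusted p under 0.05 was met by 2447 of all 12339 genes on chow and by 563 on HFD. Of 24 further genes of granules, precursors and receptors, 10 were measured, and by genotype 0 of 10 passed on either diet in edgeR, DESeq2 or voom, with 3 at an unadjusted p under 0.05 on chow and 1 on HFD. Their median was 0.24 on chow, with 9 of 10 above 0, and 0.26 on HFD, with 6 of 10 above 0. On chow the smallest p-values were those of Lcn2, the siderophore-binding lipocalin of secondary granules, at 1.02 ± 0.39 (edgeR adjusted p = 0.186), and of Ctsg, the granule protease cathepsin G, at -1.12 ± 0.45 (0.198). On HFD they were those of Cebpe, the C/EBP factor of granule genes, at 0.49 ± 0.21, and Ctsg, at -0.90 ± 0.47 (both 0.999). By genotype on chow, DESeq2 gave S100a9, at a mean of 1.89 CPM, no adjusted p. Lcn2 and Ctsg were lower, with group means of at most 1.2 and 1.21 CPM. The DESeq2 result of 0 on chow may therefore not cover them. The summed level of the 17 measured neutrophil genes was 219 to 245 CPM in WT chow, 192 to 197 in WT HFD, 220 to 273 in meKO chow and 206 to 235 in meKO HFD, of which Csf3r alone made up 64.3 to 120 CPM. Mmp8 made up 32.1 to 69.7 CPM of it. Padi4 ran from 4.38 to 71.2 CPM within WT chow and from 19.2 to 84.4 CPM within meKO chow.

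With diet in WT, Lcn2 was the 1 of these 10 genes that passed, where 21.3% of all genes did. Lcn2 stood at 0.198, 0.523 and 0.231 CPM in WT chow, 1.49, 1.14 and 0.963 in WT HFD, 0.794, 0.57 and 0.553 in meKO on chow, and 0.956, 1.3 and 0.953 in meKO on HFD. It rose by 1.91 ± 0.38 in WT (edgeR adjusted p = 0.0115), with WT HFD wholly above WT chow, but did not pass without WT chow replicate 1 (0.0702) or with WT chow replicates 1 and 2 left out together (0.202). In meKO its value was 0.73 ± 0.35 (adjusted p = 0.326) and 0 of the 10 passed, against 0.105% of all genes. An unadjusted p under 0.05 was met by 0 of the 10 and by 1962 of all 12339 genes. The median of the 10 was -0.24 in WT and -0.03 in meKO.

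Genes that neutrophils share with other myeloid cells were measured for 24 of 25, and 7 passed with diet in WT, where 21.3% of all genes did. Mmp9, gelatinase B, fell by 1.96 ± 0.21 (log2, edgeR adjusted p = 0.000678), and it passed under each of the 22 alternatives run there. Plbd1, a phospholipase B-like granule protein, fell by 0.66 ± 0.18 (0.0258) and Cybb, the catalytic subunit of the phagocyte oxidase, fell by 0.45 ± 0.14 (0.0357). The oxidase subunit Cyba, at 0.60 ± 0.14 (0.0192), and the transcription factors Spi1 (PU.1), at 0.36 ± 0.11 (0.0318), and Cebpb, at 0.75 ± 0.23 (0.0346), rose. The split of 4 higher and 3 lower became 2 and 5 with library totals as the scaling, and 4 and 2 with the length and GC offsets, where Cyba, at 0.22 ± 0.08 (0.0673), and Cybb, at -0.33 ± 0.11 (0.0629), lost their calls and Cebpa, a C/EBP factor of granulocyte precursors, gained one at 0.41 ± 0.12 (0.0438); the list's median was 0.13. Over all the lists 20 genes were called with diet in WT, and leaving out single libraries brought this to 4 (WT chow replicate 1), 7 (WT chow replicate 2), 8, 11 and 5 (WT HFD replicates 1, 2 and 3).

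In meKO, Mmp9 fell by 1.27 ± 0.21 (edgeR adjusted p = 0.0367), the 1 gene of the 24 that passed, against 0.105% of all genes. This call was lost in 9 of the 21 alternatives, among them those without WT HFD replicate 1 or 3, meKO chow replicate 2 or 3, or meKO HFD replicate 2 or 3. By genotype 0 of 24 passed in edgeR, against 0.081% of all genes on each diet. An unadjusted p under 0.05 was met by 7 on chow and 4 on HFD, against 2447 and 563 of all 12339 genes. DESeq2 called 1 lower on chow and 0 on HFD, and voom called 0. The smallest p-values were those of Cybb at -0.46 ± 0.14 (0.125) and Selplg, the P-selectin ligand, at 0.39 ± 0.12 (0.133) on chow. On HFD they were those of Pglyrp1, a granule peptidoglycan-binding protein, at 1.08 ± 0.34 (0.657) and Ncf4 at -0.46 ± 0.15 (0.769).

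Of 24 ligands, receptors and signalling partners of the members, 19 were measured. The diet test in WT called 4 of them higher and 1 lower, beside 21.3% of all genes. With diet in WT, Mif, a cytokine that can bind Cxcr2, rose by 0.89 ± 0.16 (edgeR adjusted p = 0.00919) and Bsg, a receptor for S100a9, rose by 0.51 ± 0.12 (0.0179). Il1rn, the interleukin-1 receptor antagonist, rose by 0.91 ± 0.27 (0.034) and Cd14, the co-receptor of TLR4, rose by 0.42 ± 0.13 (0.0399). Stat3, which signals downstream of Csf3r, fell by 0.63 ± 0.18 (0.0284). With the offsets 2 rises and 1 fall were called: Ly96, the TLR4 partner MD-2, went from 0.29 ± 0.18 to -0.42 ± 0.12 (0.0392), and the calls of Il1rn, Cd14 and Stat3 were lost. The list's median was 0.28. In meKO 0 of 19 passed, against 0.105% of all genes. An unadjusted p under 0.05 was met by 4 of the 19 and by 1962 of all 12339 genes. Il1rn stood at 1.33 ± 0.27 (0.0879) and Il1r1, the signalling interleukin-1 receptor, at 1.20 ± 0.27 (0.112), and DESeq2 called 3 higher and voom 0.

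By genotype 0 of these 19 passed in edgeR, against 0.081% of all genes on each diet, with medians of -0.08 on both. An unadjusted p under 0.05 was met by 5 on chow and 1 on HFD, against 2447 and 563 of all 12339 genes. DESeq2 called 1 lower on chow and 0 on HFD, and voom called 0. Socs3, the inhibitor of Csf3r and interleukin-6 family signalling, stood at -0.50 ± 0.15 on chow (edgeR adjusted p = 0.117) and at -0.33 ± 0.15 on HFD (0.999), and Bsg at 0.35 ± 0.12 on chow (0.149).

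By genotype none of the other S100 genes measured passed. Of 12 listed, 7 were measured, and by genotype 0 of 7 passed in edgeR, against 0.081% of all genes on each diet. An unadjusted p under 0.05 was met by 4 on chow and 0 on HFD, against 2447 and 563 of all 12339 genes. DESeq2 called 2 higher on chow and voom called 0. Their median was 0.41 on chow and -0.02 on HFD, where S100a9 itself was at 3.13 and 2.15. The smallest p-values on chow were those of S100a6, at 0.60 ± 0.16, and S100a10, at 0.62 ± 0.17 (both adjusted p = 0.103).

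With diet in WT all 7 of these S100 genes rose, from 0.43 ± 0.12 for S100a11 (edgeR adjusted p = 0.031) to 1.70 ± 0.53 for S100a16 (0.039), with a median of 1.01. All 7 were called, against 21.3% of all genes. S100a4, a regulator of cell motility, rose by 1.28 ± 0.22 (0.00754), S100a6 by 1.02 ± 0.16 (0.00599), S100a10, the partner of annexin A2, by 1.01 ± 0.17 (0.00647) and S100a13 by 0.75 ± 0.19 (0.0221). With the length and GC offsets 4 of 7 stayed called, S100a4, S100a6, S100a10 and S100a13, and the median was 0.47. S100a11 then turned to -0.22 ± 0.23 (0.532), S100a1 went from 0.53 ± 0.17 to 0.06 ± 0.11 (0.764) and S100a16 stood at 1.38 ± 0.52 (0.0925). In meKO 0 of 7 passed, against 0.105% of all genes, and the median was 0.40. An unadjusted p under 0.05 was met by 4 of the 7 and by 1962 of all 12339 genes. Retnla, a resistin-like gene of alternatively activated macrophages and the 1 of 3 relatives of Retnlg that was measured, stood at -0.97 ± 0.46 by genotype on chow (0.269), where Retnlg was at 1.47. It stood at -0.90 ± 0.46 with diet in WT (0.172), and at -1.43 ± 0.40 with the length and GC offsets, where it was called (0.047).

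The members did not vary as a block over the 12 libraries. As a description over libraries that share groups and depth, Pearson's r of log2 CPM was 0.87 between S100a9 and Cxcr2, 0.76 between Retnlg and Cxcr2, and 0.60 between S100a8 and S100a9. S100a8 and Csf3r ran opposite to each other, at -0.93, and at -0.89 after the group means were removed, whereas S100a9 and Cxcr2 were at 0.36 and S100a8 and S100a9 at 0.21 within groups. S100a8 has the shortest transcript of the 7, at 498 nt, and Csf3r is the longest, at 3481 nt; the part of length in this relation was not tested.

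The genes most like each member were found by Pearson's r of log2 CPM over the 12 libraries among 11353 other genes that averaged 1 CPM or more. For Retnlg the first was Ccr3, the eotaxin receptor of eosinophils, at 0.925, followed by Gas8 at 0.855 and Tbc1d10c at 0.843. For S100a9 they were Atp6v0c at 0.951, Txnl4a at 0.920 and Tpp1 at 0.915, and for Cxcr2 H3c15 at 0.896, Plcd1 at 0.873 and Ctsb at 0.865. For S100a8 they were Glod4 at 0.980, Gtf2h5 at 0.977 and Spg21 at 0.972, and for Csf3r Tbl1x at 0.971, Pex6 at 0.963 and Naa40 at 0.953. Those of Ltf included Ddost at 0.880 and Trabd at 0.880, and those of Il1r2 included Tada3 at 0.951 and Hnrnpf at 0.904. None of the genes named here for likeness was on the neutrophil lists, but this was partly fixed in advance. The members themselves, and listed genes that averaged under 1 CPM such as Lcn2 and Ctsg, were not candidates. S100a9 and Cxcr2, at 0.87 with each other, would otherwise have ranked above Ctsb for Cxcr2.

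Ccr3 stood at 14.6, 12.7 and 18.9 CPM in WT chow, 8.32, 12.3 and 12.1 in WT HFD, 23.4, 15.6 and 42.3 in meKO on chow, and 13, 19.8 and 25.1 in meKO on HFD. Like Retnlg it was highest in meKO chow replicate 3 and lowest in WT HFD replicate 1. By genotype Ccr3 did not pass, at 0.81 ± 0.32 on chow (edgeR adjusted p = 0.196) and 0.82 ± 0.33 on HFD (0.999). Of 8 eosinophil genes 4 were measured (Siglecf, Ccr3, Il5ra and Ear2), and their sum was 25.7 to 37.3 CPM in WT chow, 21.6 to 27.5 in WT HFD, 29.4 to 66 in meKO chow and 28.9 to 51.7 in meKO HFD. Ccr3 itself was the largest part of this sum. In WT chow and meKO chow Ccr3 averaged 15.4 and 27.1 CPM, Siglecf 5.55 and 7.36, Il5ra 2.03 and 2.23 and Ear2 7.99 and 8.43. In WT HFD and meKO HFD they averaged 10.9 and 19.3, 5.32 and 8.08, 0.971 and 1.45, and 7.8 and 12.8. The defining granule genes Epx and Prg2 were not among the genes analysed here. The part of eosinophils in the Retnlg values was not tested.

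**Figure D5:**
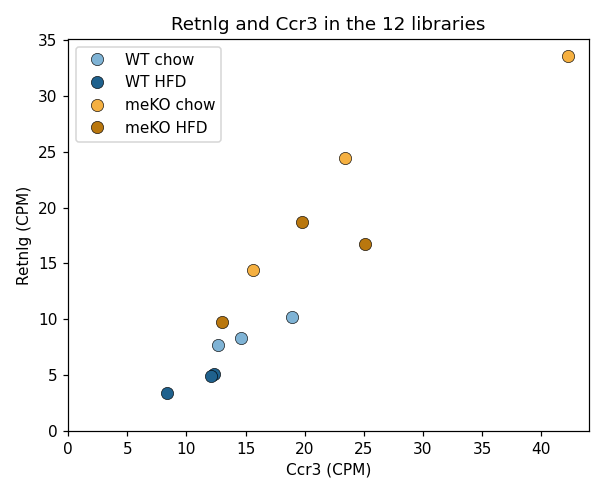
Retnlg against Ccr3, both in CPM on linear axes, in the 12 libraries coloured by group. The libraries run from WT HFD replicate 1 (Ccr3 8.32, Retnlg 3.43) to meKO chow replicate 3 (Ccr3 42.3, Retnlg 33.6).

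Marker sums of other cells also varied beside the members. The 8 monocyte genes summed to 1940 to 2760 CPM in WT chow, 1520 to 1790 in WT HFD, 1450 to 1990 in meKO chow and 1080 to 1850 in meKO HFD. Of 9 mast cell and basophil genes, 8 were measured, at 214 to 256 CPM in WT chow, 202 to 234 in WT HFD, 58.2 to 357 in meKO chow and 200 to 293 in meKO HFD. Mesothelial and stromal genes, all 8 measured, were higher in sum on HFD, at 42.8 to 71 CPM in WT chow, 74.6 to 116 in WT HFD, 44 to 77.9 in meKO chow and 90.1 to 118 in meKO HFD. Between WT chow and WT HFD 3 further lists did not overlap: 6 of 7 B cell genes went from 109 to 168 CPM to 52.8 to 88.8 CPM, all 7 dendritic cell genes from 33 to 53 CPM to 19 to 28.5 CPM, and 5 of 8 red blood cell and platelet genes from 84.4 to 184 CPM to 195 to 290 CPM. Most of the red blood cell and platelet sum was Pf4, which averaged 128 CPM in WT chow and 225 in WT HFD. Itga2b of the same list went from 0.945 to 0.549 CPM, and the haemoglobin genes Hbb-bs, Hba-a1 and Hba-a2 overlapped between these groups. The part of any of these cell types in the member values was not tested.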

How the data were processed

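RNA of 12 libraries was analysed. Whole-number counts per gene, with Entrez identifiers and symbols, were deposited by the authors; mm10 and DESeq2 are named in the submitters' processing notes, while aligner, counter and strand setting are not given in the sources used here. Trizol was used for RNA and TruSeq for libraries, per the labels. Of the 12339 genes, 186 had no symbol (0.44% of counts). Groups came from the labels; replicate numbers follow accession order and pair nothing. Replicate pairs differed by more than sampling noise (chi-square per degree of freedom at least 16.9).

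The test on counts was that of edgeR 4.0.16, run in R 4.3.3 (TMM factors of 0.935 to 1.09, filterByExpr, robust quasi-likelihood F test, 4 group means, all 12 libraries, two-sided), adjusted by Benjamini-Hochberg over all 12339 genes and called under 0.05. Scripts were tested on simulated data. CPM are TMM-scaled. Length and GC offsets used GENCODE vM21's longest transcript (mgcv 1.9.3). Alternatives included DESeq2 1.42.0, voom (limma 3.58.1), other scalings and filters, single libraries left out, and WT chow replicates 1 and 2 left out together, the last chosen after seeing the data.

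The members and gene lists were chosen with earlier results of these data known. All members were named; from each list and contrast, up to 5 called genes by p, or the 2 smallest p-values where none was called; for likeness, the 3 highest r. Cebpb, Cybb, Cebpa, Ly96, S100a1, S100a16, Il1rn and Il1r1 in meKO, and marker genes were named in addition, after their values were seen. Results on some items withheld for evaluation, which the rule would name, are not reported here. All 7 members matched RefSeq promoters.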

Additional observations from a re-analysis of the deposited data

How the results depend on the processing

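Counts of members called by genotype are a description, since the choice of members used these contrasts. On chow 1 member was called, 0 with at least 10 counts required in every library (which removes S100a9, Cxcr2 and Il1r2) and 0 with WT chow replicates 1 and 2 left out together; single libraries left out gave 1 to 5 (5 without WT chow replicate 3, where 2543 of all 12339 genes were called against 10 with every library). On HFD 1 was called, 0 with at least 10 counts, 0 with limma-voom, 2 with DESeq2 and 2 with only the 6 libraries compared; single libraries left out gave 0 to 2. With diet in WT 5 were called, 3 with at least 10 counts, 2 with the length and GC offsets, and 0 with WT chow replicates 1 and 2 left out together; single libraries left out gave 0 to 5. Of the genes of the 5 lists, 0 were called by genotype on chow, 4 with DESeq2 (which called 591 of all genes), and 0 to 18 with single libraries left out (18 without WT chow replicate 3). With diet in WT 20 were called, 1 (Mmp9) with WT chow replicates 1 and 2 left out together, and 4 to 27 with single libraries left out. With diet in meKO 1 was called, 4 with DESeq2, 0 with library totals, 0 with limma-voom and 0 with only the 6 libraries compared; single libraries left out gave 0 to 3. Apart from fewer samples or genes in a fit, the cause was not tested. Member fold changes whose sign turned were all below the threshold. With single libraries left out, Csf3r by genotype on HFD ran from -0.08 to 0.22 (negative without meKO HFD replicate 1), and in the interaction S100a8 ran from -0.52 to 0.05 (positive without meKO HFD replicate 1), Retnlg from -0.01 to 0.59 (negative without meKO chow replicate 2) and Ltf from -0.05 to 1.06 (negative without meKO HFD replicate 3). With the offsets the S100a8 interaction was 0.02. Without WT chow replicates 1 and 2 it was 0.28, S100a8 by genotype on chow was -0.06 and Ltf with diet in WT was -0.03. DESeq2 gave S100a9, Cxcr2, Il1r2 and Ltf no adjusted p by genotype on chow, so its count of members there covers only S100a8, Retnlg and Csf3r. Its counts for the lists on chow may likewise leave out genes of low count. Counts of 5 to 37 for Cxcr2 limit its precision. No paired analysis was possible because replicate numbers only follow the order of the samples.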
